A study of Mus musculus with 12 samples.

Results

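Cholesterol synthesis and handling was followed through 29 genes in the interscapular brown adipose tissue (BAT) of mice that carry or lack *Txnip*, which encodes thioredoxin-interacting protein, a redox and nutrient sensor. The genes were chosen by function, as the rows of the expression table whose symbol was on a list of sterol genes, and all 29 were found among 25124 genes. They comprise 18 enzymes of the synthesis pathway, 4 genes of its transcriptional control, 5 genes of cholesterol transport, storage and uptake (called handling here) and 2 exporters. The data are RNA-seq libraries from 12 male mice aged 10 weeks, 3 in each of 4 groups: WT and Txnip-/- at room temperature (RT, 23 °C), and WT and Txnip-/- kept for 1 week at thermoneutrality (TN, 30 °C), where no heat production beyond the resting rate is needed. The Txnip-/- line was maintained on a C57B/6J background, and the methods name no tissue to which the loss of *Txnip* was restricted. Each library was taken as a mouse of its own, and where that is not so, the p-values measure only the spread between these libraries. The labels name no batch, but each temperature was a set of mice with its own numbering of libraries, so any difference in handling between RT and TN cannot be told apart from temperature.

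Cells make cholesterol from acetyl-CoA by way of mevalonate, squalene and lanosterol. When sterol in the endoplasmic reticulum is low, the escort protein SCAP carries the transcription factor SREBP2 to the Golgi for cleavage, and the enzymes of the pathway are transcribed together, whereas INSIG proteins hold the complex back when sterol is plentiful. Surplus cholesterol is esterified for storage or exported through ABC transporters, whose genes are targets of the oxysterol-activated liver X receptors. Adipose tissue holds much free cholesterol on lipid droplet surfaces, and macrophages in the tissue are strong users of the storage and export genes.

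Expression was measured as TPM, a share of all transcripts in the library that is scaled for transcript length and library size, so levels can be compared between genes. Libraries held between 29.93 M and 47.44 M reads (M, mega), and Pearson's r between libraries of a group ran from 0.985 to 0.993 across genes, which are not independent replicates. The targeted gene was at 564 to 694 TPM in WT and 24.8 to 35.4 in Txnip-/- at RT, and at 1072 to 1238 in WT and 10.5 to 14.4 in Txnip-/- at TN, as the labels imply. The defining genes of brown adipocytes (*Ucp1*, *Cidea*, *Dio2*, *Elovl3*, *Cox7a1* and *Cox8b*) were present in every library, with a summed level of 11300 to 11930 TPM in RT WT and 3678 to 4290 TPM in TN Txnip-/-. Of these 6, 2 were called lower in Txnip-/- at RT and 5 at TN, where 0.726% and 2.17% of all tested genes were. With temperature, 5 fell in WT and 6 in Txnip-/-, where 6.39% and 8.27% of all tested genes did. Under upper-quartile normalization the count of 2 at RT went to 0. The summed level of 12 macrophage markers, none of which was at 0 in any library, was 86.9 to 102 TPM in WT and 141 to 223 in Txnip-/- at RT, and 182 to 314 in WT and 507 to 718 in Txnip-/- at TN, and the groups of each temperature did not overlap. The summed level of 7 skeletal muscle markers was 2.36 to 2.89 TPM in WT and 17.9 to 43.6 in Txnip-/- at RT, and their part in the RT results was not tested. Of the 7, 5 passed the filter and were called higher in Txnip-/- at RT, where 0.76% of all tested genes were. Among these 5, *Acta1*, *Ckm*, *Myh4* and *Tnnt3* passed the filter only through the Txnip-/- libraries. At TN it was 14.5 in WT library 2, 14.4 in Txnip-/- library 2 and 2.32 to 3.42 in the 4 other libraries. In bulk tissue, fewer cells of a type and less RNA per cell cannot be told apart.

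Loss of *Txnip* moved few of the 29 genes, and those that rose were an enzyme, a storage gene and an exporter. A gene was called where its TPM + 1 differed by a fold above 1.25 or below 0.8 at an adjusted p (limma) under 0.05. At TN, 3 of the 29 genes were called, all higher in Txnip-/- (*Fdft1*, *Soat1* and *Abcg1*), where 8.66% of 12891 tested genes were called, 6.49% higher and 2.17% lower, so the count is near the background. At RT, 0 of the 28 tested genes were called by limma, where 1.49% of 11980 were (0.76% higher and 0.726% lower), and 6 had an unadjusted p under 0.05, against 16% of all tested genes. *Soat1* was below the expression filter at RT, a mean of 1 TPM. The libraries of Txnip-/- lay wholly above those of WT for 4 genes and wholly below for 2 at TN, where 17.7% and 13.4% of tested genes did so. At RT the numbers were 4 and 2 of 28, against 15.1% and 7.58%. For any single gene, an exact permutation test of 3 mice against 3 cannot give a two-sided p below 0.1.

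**Figure D1:**
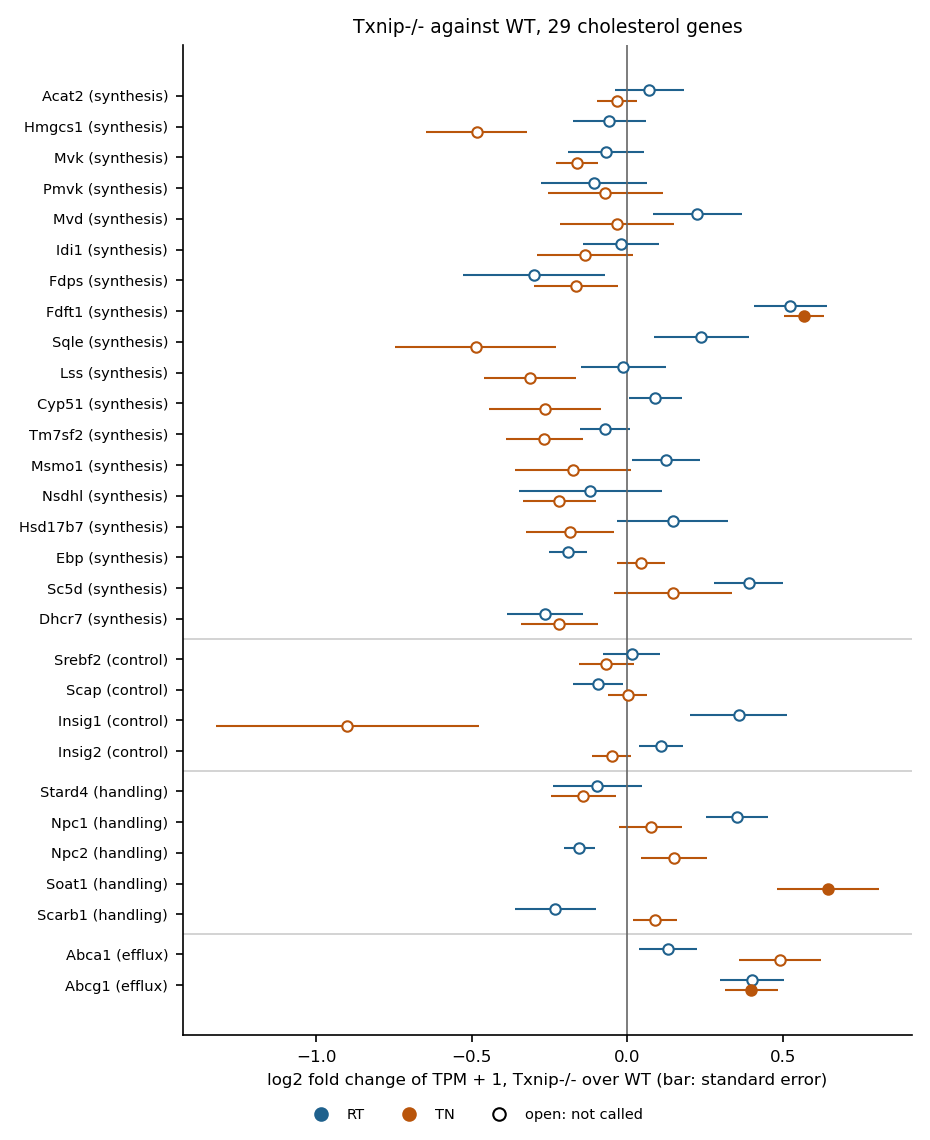
Log2 fold change of TPM + 1 (x axis) of Txnip-/- over WT for each of the 29 genes (y axis, with the role in brackets), at RT in blue and TN in orange, with bars for the standard error (SE) and filled points for called genes. The 3 filled points, all at TN, are *Fdft1* (0.57), *Soat1* (0.64) and *Abcg1* (0.40), while most enzymes of the pathway lie left of 0 at TN.

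With temperature, 12 of the 29 genes were called in WT and 10 in Txnip-/-, in both directions, which is near the share over all genes. In WT, 9 of the 29 genes rose and 3 fell at TN against RT, where 37.8% of 12486 tested genes were called, 31.4% higher and 6.39% lower. In Txnip-/-, 7 rose and 3 fell, where 39.2% were called, 30.9% higher and 8.27% lower. These comparisons depend on the scaling, since the median log2 fold change of all tested genes was 0.18 in WT and 0.15 in Txnip-/-, and 0.02 and 0.01 after upper-quartile normalization. With that scaling, 2176 genes were higher and 1756 lower in WT (3919 and 798 without it), 2633 and 2081 in Txnip-/- (3858 and 1033 without it), and the 29 genes split into 5 higher and 6 lower in WT and 5 higher and 4 lower in Txnip-/-.

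**Figure D2:**
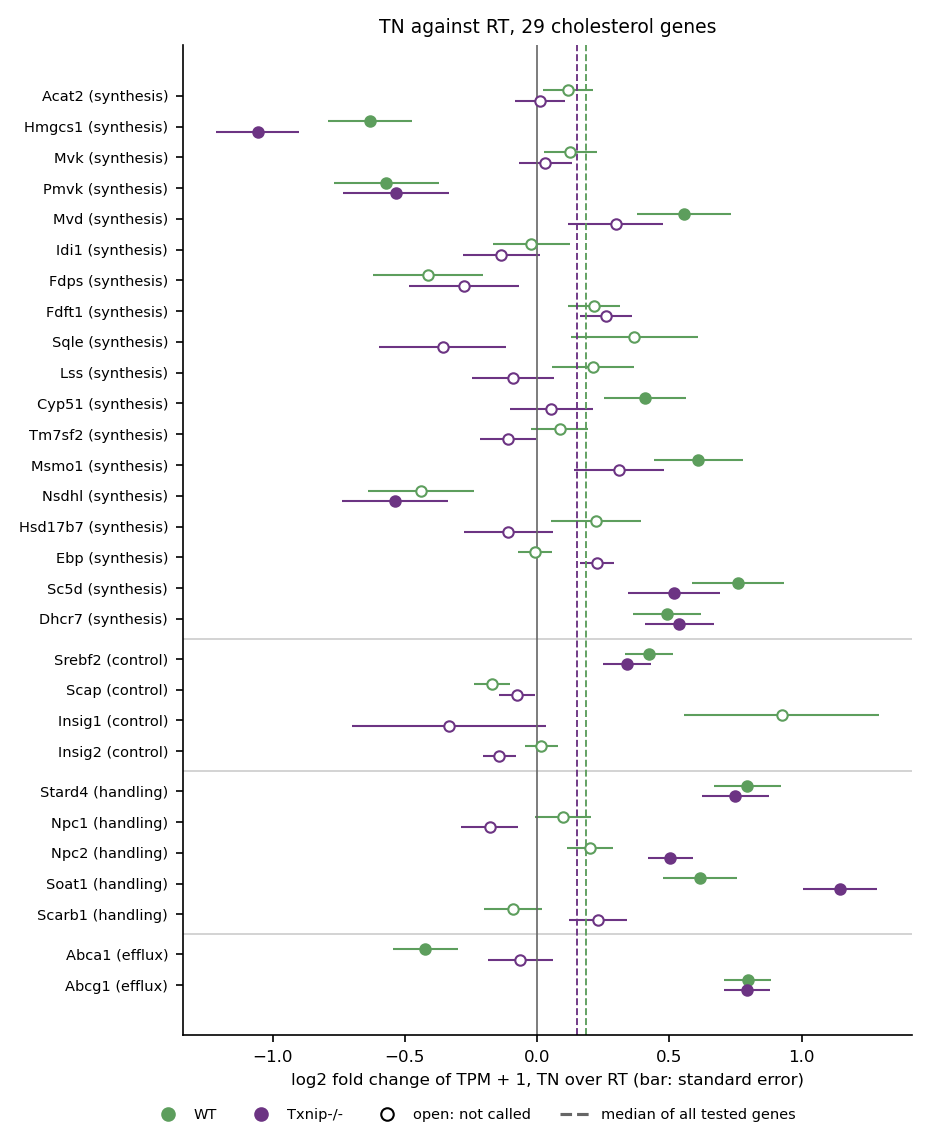
Log2 fold change of TPM + 1 (x axis) of TN over RT for the 29 genes (y axis), in WT (green) and Txnip-/- (purple), with bars for the standard error, filled points for called genes and dashed lines at the medians of all tested genes, 0.18 and 0.15. *Hmgcs1* lies farthest left in both genotypes (−0.63 and −1.06), and *Stard4*, *Soat1* and *Abcg1* are filled and right of both dashed lines.

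Within the synthesis enzymes, levels were highest for *Acat2* (90.5 to 118 TPM over the 12 libraries), *Hmgcs1*, *Pmvk* and *Fdft1*, and lowest for *Hsd17b7* (1.72 to 3.60 TPM), *Idi1* (2.34 to 4.19 TPM) and *Mvd*. *Acat2*, the thiolase of the first step, has a near-identical copy, *Acat3*, at 18.1 to 45.0 TPM, so reads may have been divided between them. Exons of 9 of the 29 genes overlap those of another gene, on the same strand for *Fdps* (with *Gm43738*) and *Tm7sf2* (with *Vps51*) and on the opposite strand for *Fdft1*, *Cyp51*, *Hmgcs1*, *Idi1*, *Lss*, *Npc1* and *Scap*. The kit and the counting step are not described as keeping strand, so such pairs cannot be told apart in the shared bases.

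*Fdft1* encodes squalene synthase, the enzyme that commits the pathway to sterols, and had the largest log2 fold change of the 18 enzymes between genotypes at both temperatures. It lies on the minus strand of mm10 at chr14:63145151-63177887 and was measured on the transcript NM_001360211. Its level was 58.3, 62.9 and 61.5 TPM in the RT WT libraries, 95.9, 72.0 and 98.5 in RT Txnip-/-, 72.9, 71.5 and 68.2 in TN WT and 111, 102 and 104 in TN Txnip-/-. Each Txnip-/- library lay above each WT library of its temperature, with RT Txnip-/- library 2 the lowest of the 6. At TN the log2 fold change was 0.57 (standard error, SE, 0.06, limma adjusted p = 0.00428), and the gene was called in 13 of 13 alternative settings, including each library left out in turn. At RT it was 0.52 (SE 0.12, limma adjusted p = 0.0873), and without RT Txnip-/- library 2 it was 0.67 (adjusted p = 0.0178), which passed the threshold.

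The 3′ end of *Fdft1* shares 773 exonic bases, 26.2% of its 2946-base transcript, with the last exon of *Ctsb* on the opposite strand, the gene of the lysosomal protease cathepsin B. *Ctsb* was more abundant, at 415 ± 17.5 TPM (SD, n = 3) in WT and 467 ± 20.9 in Txnip-/- at RT, and 439.8 ± 12.6 in WT and 665 ± 48.0 in Txnip-/- at TN. It rose in Txnip-/- at TN (log2 fold change 0.59, limma adjusted p = 0.00619), while at RT its log2 fold change was 0.17 (adjusted p = 0.21), below that of *Fdft1*. The part of *Ctsb* reads in the *Fdft1* values was not tested.

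Most of the other enzymes had values below WT in Txnip-/- at TN without any passing the test. Of the 18 enzymes, 15 had a log2 fold change below 0 at TN, where 48.1% of all tested genes did, and their median was −0.17 against 0.01 for all tested genes. Single libraries moved that median, to −0.073 without TN Txnip-/- library 2, −0.092 without TN WT library 2 and −0.275 without TN WT library 1. At RT, 10 were below 0 and 8 above, with 40.8% of all tested genes below 0 and a median of −0.02 against 0.03. *Hmgcs1* encodes the synthase that makes HMG-CoA, the substrate of mevalonate synthesis. It was 79.6, 63.4 and 72.7 TPM in TN WT and 53.1, 39.4 and 62.9 TPM in TN Txnip-/-, where the highest Txnip-/- library lay just under the lowest WT library. Its log2 fold change at TN was −0.48 (SE 0.16, limma adjusted p = 0.106), and it passed the threshold without TN Txnip-/- library 3, at −0.63 (adjusted p = 0.0458). Without TN Txnip-/- library 2 it was −0.30 (adjusted p = 0.211), and without any of the 4 other libraries of TN its adjusted p lay between 0.116 and 0.236. *Mvk*, mevalonate kinase, was the other enzyme whose TN groups did not overlap, at a log2 fold change of −0.16 (adjusted p = 0.174). *Sqle*, squalene epoxidase, and *Lss*, which closes the lanosterol ring system, had log2 fold changes of −0.49 (adjusted p = 0.291) and −0.31 (adjusted p = 0.231), and their groups overlapped. With 1 library left out, *Sqle* ranged from −0.752 (without TN WT library 1) to −0.274 (without TN Txnip-/- library 2) and *Lss* from −0.475 (without TN WT library 1) to −0.198 (without TN WT library 2).

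At TN, the enzymes of 1 library tended to be high or low together within its group. In TN WT, library 1 was the lowest of the 3 for 13 of the 18 enzymes and library 2 the highest for 12. In TN Txnip-/-, library 2 was the lowest for 14 and library 3 the highest for 14. At RT no library was the lowest or the highest for more than 10 of the 18. *Sqle* shows the pattern, with 6.11, 11.8 and 10.9 TPM in TN WT and 6.61, 4.44 and 8.46 TPM in TN Txnip-/-, so that TN WT library 1 lay within the range of the Txnip-/- libraries. The mean log2(TPM + 1) over the 18 enzymes was 4.23 ± 0.19 (SD, n = 3) in TN WT and 4.10 ± 0.15 in TN Txnip-/-, 4.12 ± 0.10 in RT WT and 4.15 ± 0.07 in RT Txnip-/-, and these groups overlapped at both temperatures.

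**Figure D3:**
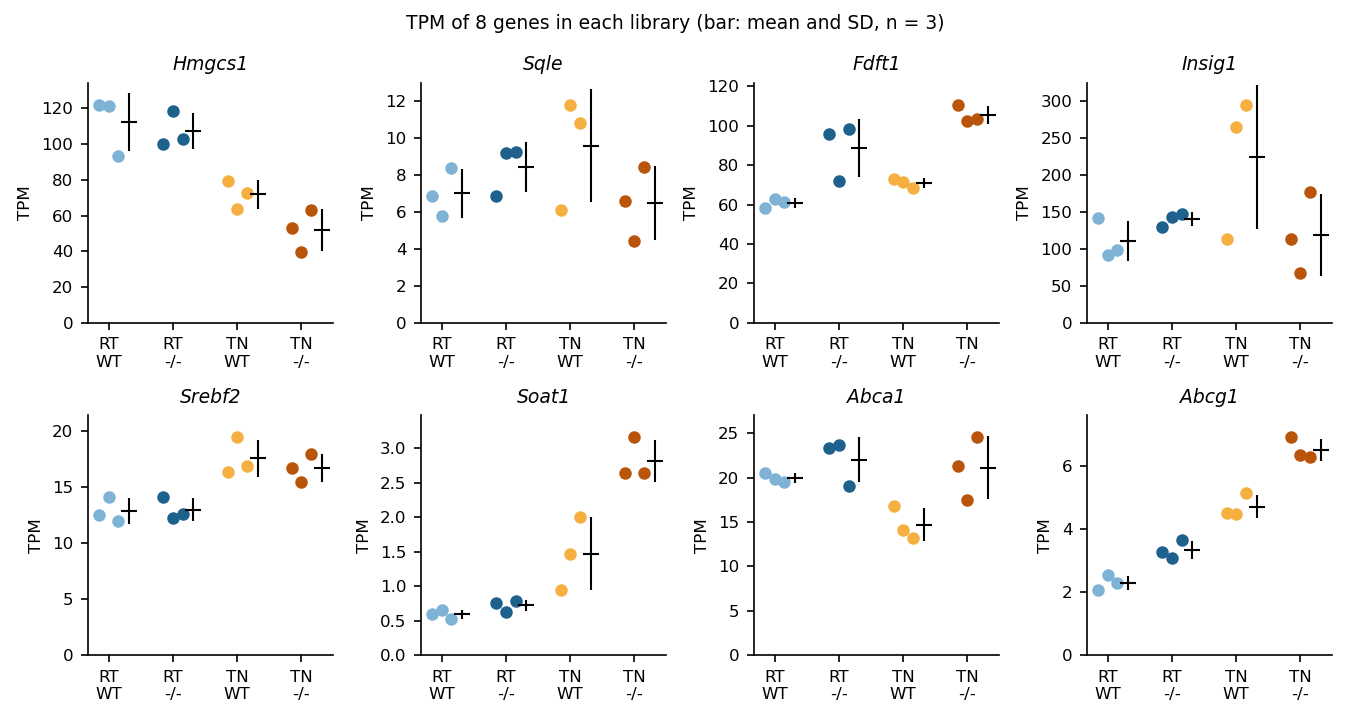
TPM (y axis, linear from 0) of 8 genes in each of the 12 libraries, by group along the x axis, with the mean and SD of each group to the right of its points (n = 3). *Fdft1* and *Abcg1* separate the genotypes at both temperatures, and *Soat1* and *Abca1* at TN, all higher in Txnip-/-. *Hmgcs1* also separates them at TN, lower in Txnip-/- (39.4 to 62.9 against 63.4 to 79.6 TPM). *Insig1* and *Sqle* spread widely within TN WT (114 to 295 and 6.11 to 11.8 TPM).

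At TN against RT, some enzymes fell and others rose. The ones that fell were *Hmgcs1* and *Pmvk* in both genotypes and *Nsdhl* in Txnip-/-. These are 2 of the 18 enzymes in WT and 3 in Txnip-/-, where 6.39% and 8.27% of all tested genes fell. Under upper-quartile normalization, 4 enzymes were called lower and 2 higher in WT, and 3 lower and 1 higher in Txnip-/-. *Hmgcs1* was 122, 121 and 93.6 TPM in RT WT and 100.2, 119 and 103 TPM in RT Txnip-/-. All 6 TN libraries lay below all 6 RT libraries, at 64.0% of the RT mean in WT and 48.3% in Txnip-/-. It fell by 0.63 on the log2 scale in WT (limma adjusted p = 0.00654) and by 1.06 in Txnip-/- (adjusted p = 0.000248), in 12 of 12 alternatives each. *Pmvk*, phosphomevalonate kinase, was 77.1, 63.4 and 106 TPM in WT and 69.9, 78.6 and 75.4 in Txnip-/- at RT, and 39.6, 69.6 and 56.6 in WT and 52.8, 45.6 and 55.7 in Txnip-/- at TN. TN WT library 2 lay above RT WT library 2, while the Txnip-/- groups did not overlap. *Pmvk* fell by 0.57 in WT and by 0.53 in Txnip-/- on the log2 scale (adjusted p = 0.0323 and 0.0416), but the call was lost without RT WT library 1 or 3, TN WT library 1 or 3, or any of the 6 Txnip-/- libraries (adjusted p between 0.0521 and 0.132). The WT value was −0.353 without TN WT library 1 and −0.371 without RT WT library 3. *Nsdhl*, which removes a methyl group at carbon 4 of the sterol, was 18.3, 26.4 and 28.1 TPM in RT Txnip-/- and 16.9, 14.5 and 17.2 in TN Txnip-/-. It fell by 0.54 on the log2 scale in Txnip-/- (adjusted p = 0.0411), which was lost without any of the libraries except RT Txnip-/- library 1 (adjusted p between 0.0616 and 0.141). In WT it was 25.7, 19.5 and 35.0 TPM at RT and 16.3, 22.2 and 18.8 TPM at TN, and these overlapped.

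The enzymes that rose at TN were *Sc5d* and *Dhcr7* in both genotypes and *Cyp51*, *Msmo1* and *Mvd*, which makes isopentenyl pyrophosphate, in WT. These are 5 of the 18 enzymes in WT, where 31.4% of all tested genes rose, and 2 in Txnip-/-, where 30.9% did. *Sc5d*, the sterol C5-desaturase, was 26.4, 22.5 and 22.5 TPM in WT and 36.0, 27.4 and 31.4 in Txnip-/- at RT, and 31.4, 44.5 and 48.9 in WT and 46.3, 36.4 and 55.4 in Txnip-/- at TN. The TN libraries lay above the RT libraries of their genotype, and *Sc5d* rose by 0.76 in WT (limma adjusted p = 0.00429) and by 0.52 in Txnip-/- (adjusted p = 0.0274) on the log2 scale. The second call was lost under upper-quartile normalization (0.36, adjusted p = 0.1) and without RT Txnip-/- library 2 or 3 or TN Txnip-/- library 1 or 3 (adjusted p between 0.0619 and 0.11). *Dhcr7*, which carries out a final reduction to cholesterol, was 11.9, 8.91 and 11.3 TPM in WT and 9.46, 7.78 and 8.86 in Txnip-/- at RT, and 14.4, 18.2 and 13.7 in WT and 13.6, 11.4 and 14.3 in Txnip-/- at TN. The TN libraries again lay above the RT ones, with log2 fold changes of 0.49 in WT (adjusted p = 0.009) and 0.54 in Txnip-/- (adjusted p = 0.00507), of which the first was lost under upper-quartile normalization (0.32, adjusted p = 0.0609).

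*Cyp51*, *Msmo1* and *Mvd* were called in WT but not in Txnip-/-, and none of the 3 differences between genotypes passed the test of the interaction. *Msmo1*, the sterol C4-methyl oxidase, was 9.42, 9.73 and 7.86 TPM in RT WT and 11.1, 16.3 and 15.8 in TN WT, with no overlap, and 11.2, 9.44 and 9.09 in RT Txnip-/- and 13.2, 9.55 and 15.3 in TN Txnip-/-, with overlap. *Cyp51*, lanosterol demethylase, was 8.47, 9.22 and 9.57 TPM in WT and 10.4, 9.82 and 8.99 in Txnip-/- at RT, and 9.79, 14.5 and 13.3 in WT and 11.3, 7.70 and 11.9 in Txnip-/- at TN. *Mvd* was 2.73, 3.33 and 4.01 TPM in WT and 4.04, 3.47 and 4.74 in Txnip-/- at RT, and 3.68, 5.97 and 6.88 in WT and 5.42, 4.66 and 5.59 in Txnip-/- at TN. The WT log2 fold changes were 0.61 for *Msmo1* (limma adjusted p = 0.0113), 0.41 for *Cyp51* (adjusted p = 0.0457) and 0.55 for *Mvd* (adjusted p = 0.0229). Under upper-quartile normalization *Cyp51* was at 0.24 (adjusted p = 0.229) and *Mvd* at 0.41 (adjusted p = 0.0873), neither called. *Cyp51* was also lost without RT WT library 1, 2 or 3 or TN WT library 2 or 3 (adjusted p between 0.0686 and 0.171), and *Mvd* without RT WT library 1 or 2 or TN WT library 2 or 3 (adjusted p between 0.0518 and 0.0935). The call of *Cyp51* was lost as well with the replicate number as a block (adjusted p = 0.0617) and with no filter on low values (adjusted p = 0.0723).

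The promoters of *Hmgcs1*, *Insig1* and *Abca1* are shown as examples of a synthesis gene, a control gene and an export gene. They were read from the RefSeq promoter table (build GRCm38.p6), which held 22 of the 29 genes, and run 5′ to 3′ along the gene over the 250 bases before the gene start, at chr13:119690101-119690350 (plus strand), chr5:28071162-28071411 (plus strand) and chr4:53159896-53160145 (minus strand). Capitals mark matches on either strand to TCACNCCAC, the core of the sterol regulatory element, or to CCAAT, the box bound by NF-Y, a usual partner of SREBP2. These motifs do not overlap here.
Hmgcs1: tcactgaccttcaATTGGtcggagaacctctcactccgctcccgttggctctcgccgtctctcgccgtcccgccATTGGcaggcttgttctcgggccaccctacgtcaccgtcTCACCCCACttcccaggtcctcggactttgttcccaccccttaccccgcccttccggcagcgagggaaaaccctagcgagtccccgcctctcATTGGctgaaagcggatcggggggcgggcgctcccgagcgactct
Insig1: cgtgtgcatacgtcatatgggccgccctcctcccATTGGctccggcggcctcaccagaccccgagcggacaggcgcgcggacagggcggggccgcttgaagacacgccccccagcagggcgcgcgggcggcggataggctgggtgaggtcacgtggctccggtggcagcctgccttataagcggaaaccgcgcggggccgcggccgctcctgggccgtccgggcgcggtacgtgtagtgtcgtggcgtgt
Abca1: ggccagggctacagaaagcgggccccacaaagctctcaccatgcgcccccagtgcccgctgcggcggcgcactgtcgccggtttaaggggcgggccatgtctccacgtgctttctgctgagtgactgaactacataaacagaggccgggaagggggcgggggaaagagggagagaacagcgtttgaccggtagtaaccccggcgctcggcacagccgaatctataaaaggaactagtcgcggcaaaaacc
In the 300-base window of the table, which also takes in the first 50 bases of the gene, the sterol element core stood in 1 of the 22 genes (4.55%), *Hmgcs1*, where it begins 137 bases before the gene start, against 1.44% of 27025 genes. CCAAT was in 19 of the 22 (86.4%) and in 14 of 15 enzymes (93.3%), against 41.1% of all genes, and no match was in the *Abca1* window. A match is a run of letters and not a shown binding site. The gene start is the one given with the promoter, which for *Pmvk* and *Dhcr7* lies apart from the start of the measured transcript.

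Of the control genes, none was called by genotype. *Srebf2*, which encodes SREBP2, was 12.5, 14.1 and 11.95 TPM in WT and 14.1, 12.2 and 12.6 in Txnip-/- at RT, and 16.4, 19.4 and 16.9 in WT and 16.6, 15.5 and 17.9 in Txnip-/- at TN, and the genotypes overlapped at each temperature. All TN libraries lay above all RT libraries, and *Srebf2* rose by 0.42 on the log2 scale in WT (limma adjusted p = 0.00288) and by 0.34 in Txnip-/- (adjusted p = 0.0083). Neither call held under upper-quartile normalization (0.25 with adjusted p = 0.0284, and 0.19 with adjusted p = 0.0743), and the second was also lost without RT Txnip-/- library 2 (0.30) or TN Txnip-/- library 3 (0.29). *Scap*, the escort, and *Insig2*, a retention gene, ranged from 18.9 to 23.9 TPM and from 21.9 to 26.4 TPM over the 12 libraries. Neither was called with temperature. The TN libraries lay below the RT libraries for *Scap* in WT (19.4 to 19.8 against 19.97 to 23.9 TPM). For *Insig2* they did so in Txnip-/- (21.9 to 23.2 against 23.4 to 26.4 TPM). Under upper-quartile normalization 1 of the 4 control genes was called lower at TN in WT.

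*Insig1*, itself a target of SREBP2 that retains the SCAP complex, varied widely between mice of the same group at TN. It was 142, 92.2 and 98.0 TPM in WT and 129, 143 and 147 in Txnip-/- at RT, and 114, 265 and 295 in WT and 113, 67.1 and 177 in Txnip-/- at TN. TN WT library 1 was level with TN Txnip-/- library 1, and the genotypes overlapped at both temperatures. The log2 fold change of Txnip-/- over WT was 0.36 at RT (SE 0.16, limma adjusted p = 0.323, and 0.549 without RT WT library 1) and −0.90 at TN (SE 0.42, adjusted p = 0.23), with −0.54 to −1.33 at TN when a library was left out. At TN against RT in WT it was 0.92 (adjusted p = 0.0544), and 1.35 (adjusted p = 0.00605) without TN WT library 1 and 1.12 (adjusted p = 0.0432) without RT WT library 1, both past the threshold. In Txnip-/- it was −0.33 (adjusted p = 0.468), and 0.02 without TN Txnip-/- library 2.

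Of the handling genes, *Soat1* was called by genotype and *Stard4*, *Soat1* and *Npc2* by temperature. *Soat1* encodes the acyltransferase that esterifies cholesterol for storage. It lies on the minus strand of mm10 at chr1:156428108-156474328 and was the least abundant of the 29 genes, at 0.599, 0.649 and 0.519 TPM in WT and 0.751, 0.631 and 0.785 in Txnip-/- at RT, and 0.950, 1.47 and 1.996 in WT and 2.64, 3.16 and 2.64 in Txnip-/- at TN. Each TN Txnip-/- library lay above each TN WT library, and RT WT library 2 lay above RT Txnip-/- library 2. At TN the Txnip-/- mean was 191% of WT and the log2 fold change of TPM + 1, which is smaller than that of TPM for a gene this low, was 0.64 (SE 0.16, limma adjusted p = 0.0474). The call held in 3 of 13 alternatives and was lost without TN WT library 1 or 2 or any TN Txnip-/- library (0.48 to 0.68, adjusted p between 0.0813 and 0.152). At TN against RT it rose in both genotypes, to 250% of the RT mean in WT (log2 fold change 0.62, adjusted p = 0.00394) and 389% in Txnip-/- (1.14, adjusted p = 7.3e-05), in 12 of 12 alternatives each. Its mean over the 12 libraries was above the filter of 1 TPM only through the TN groups, where it was high, and the 12 alternatives include the fit with no filter.

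*Stard4*, a carrier of cholesterol between membranes and a SREBP2 target, rose at TN in both genotypes. It was 2.46, 2.44 and 1.84 TPM in WT and 2.55, 1.67 and 1.91 in Txnip-/- at RT, and 4.45, 5.04 and 4.34 in WT and 4.57, 3.55 and 4.16 in Txnip-/- at TN, with no overlap between temperatures and with overlap between genotypes. Its log2 fold change was 0.79 in WT (limma adjusted p = 0.000581) and 0.75 in Txnip-/- (adjusted p = 0.000555), called in 12 of 12 alternatives each. *Npc2*, the soluble lysosomal cholesterol carrier, was 151, 158 and 157 TPM in WT and 140.5, 136 and 142 in Txnip-/- at RT, and 157, 189 and 192 in WT and 211, 209 and 176 in Txnip-/- at TN. In Txnip-/- it rose by 0.50 on the log2 scale (adjusted p = 0.000585), while in WT, where the groups overlapped, its log2 fold change was 0.20 (adjusted p = 0.0716). At RT the Txnip-/- libraries lay wholly below WT, at −0.15 (adjusted p = 0.191). *Npc1*, the membrane partner of NPC2, ranged from 23.7 to 37.6 TPM, and its RT Txnip-/- libraries lay above those of WT (0.35, adjusted p = 0.153). *Scarb1*, the HDL receptor, ranged from 37.7 to 55.5 TPM and was called in none of the comparisons.

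Both exporters had a higher mean in Txnip-/- at TN, and *Abcg1* was called. *Abcg1*, which exports cholesterol to HDL, lies on the plus strand of mm10 at chr17:31057694-31117981. It was 2.06, 2.53 and 2.27 TPM in WT and 3.27, 3.07 and 3.65 in Txnip-/- at RT, and 4.49, 4.48 and 5.14 in WT and 6.91, 6.34 and 6.27 in Txnip-/- at TN. The groups formed 4 steps with no overlap. The Txnip-/- mean was 146% of WT at RT and 138% at TN, and the log2 fold change was 0.40 at RT (SE 0.10, limma adjusted p = 0.122) and 0.40 at TN (SE 0.08, adjusted p = 0.0274). The TN call held in 5 of 13 alternatives and was lost without TN WT library 1 or 2 or any TN Txnip-/- library (0.36 to 0.42, adjusted p between 0.0507 and 0.108). At TN against RT *Abcg1* rose by 0.80 in WT (adjusted p = 0.000101) and 0.79 in Txnip-/- (adjusted p = 4.2e-05) on the log2 scale, in 12 of 12 alternatives each.

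*Abca1*, which loads cholesterol onto apolipoprotein A-I, had another pattern, with a lower level at TN in WT. It was 20.6, 19.9 and 19.5 TPM in WT and 23.4, 23.7 and 19.1 in Txnip-/- at RT, and 16.8, 14.1 and 13.2 in WT and 21.3, 17.5 and 24.6 in Txnip-/- at TN. The TN WT libraries were the 3 lowest of all 12, and every other group overlapped with another. *Abca1* fell by 0.42 on the log2 scale at TN in WT (limma adjusted p = 0.0142, and 0.0546 without TN WT library 3), and in Txnip-/- its log2 fold change was −0.06 (adjusted p = 0.685, and 0.06 without TN Txnip-/- library 2). At TN the log2 fold change of Txnip-/- over WT was 0.49 (SE 0.13, adjusted p = 0.0572), which passed the threshold without TN Txnip-/- library 2 (0.61, adjusted p = 0.0436), with all 12 libraries in 1 fit (0.49, adjusted p = 0.0255) and on the authors' log2 values (0.36, adjusted p = 0.035), 3 of 13 alternatives. At RT it was 0.13 (adjusted p = 0.549), with 0.076 without RT Txnip-/- library 2 and 0.227 without RT Txnip-/- library 3.

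Macrophage markers were higher in the groups with more *Soat1* and *Abcg1*, but not in step with *Abca1*, which fell at TN in WT. In Txnip-/- against WT, 10 of the 12 markers rose at TN and 3 of 10 tested at RT, where 6.49% and 0.76% of all tested genes were called higher, and at TN against RT 10 rose in WT and 11 in Txnip-/-, where 31.4% and 30.9% of all tested genes did. The markers *Cx3cr1* and *Fcgr1* averaged under 1 TPM at RT and passed the filter through the TN groups. The 4 fibroblast markers also rose in Txnip-/- at TN (6.49% of all tested genes), from a summed 272 to 375 TPM in WT to 640 to 651 TPM. With temperature, all 4 fibroblast markers rose in both genotypes, from a summed 164 to 204 TPM in RT WT and 197 to 243 TPM in RT Txnip-/-. Of 4 endothelial markers, 3 rose at TN in WT and 4 in Txnip-/- (1 and 3 under upper-quartile normalization), and none was called between genotypes. Their sum went from 209 to 221 TPM to 258 to 325 TPM in WT and from 176 to 212 TPM to 284 to 319 TPM in Txnip-/-. The 3 TN Txnip-/- libraries had the highest macrophage marker sums and the highest *Soat1* and *Abcg1* levels of the 12, whereas RT Txnip-/- libraries 1 and 3, at 223 and 207 TPM of these markers, had less of both genes than TN WT library 1, at 182 TPM. Of 5 lymphocyte markers, 2 were tested over temperature, and 1 rose in WT and 2 in Txnip-/-, while the summed level of all 5 was at most 10.7 TPM in any library. Of 5 general adipocyte markers, none was called between genotypes, 1 rose and 1 fell with temperature in WT and 1 fell in Txnip-/-. Under upper-quartile normalization 0 rose and 2 fell in each genotype. The sum of these 5 ran from 15310 to 20840 TPM. The part of any of these cell types in the *Soat1*, *Abcg1* and *Abca1* values was not tested.

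**Figure D4:**
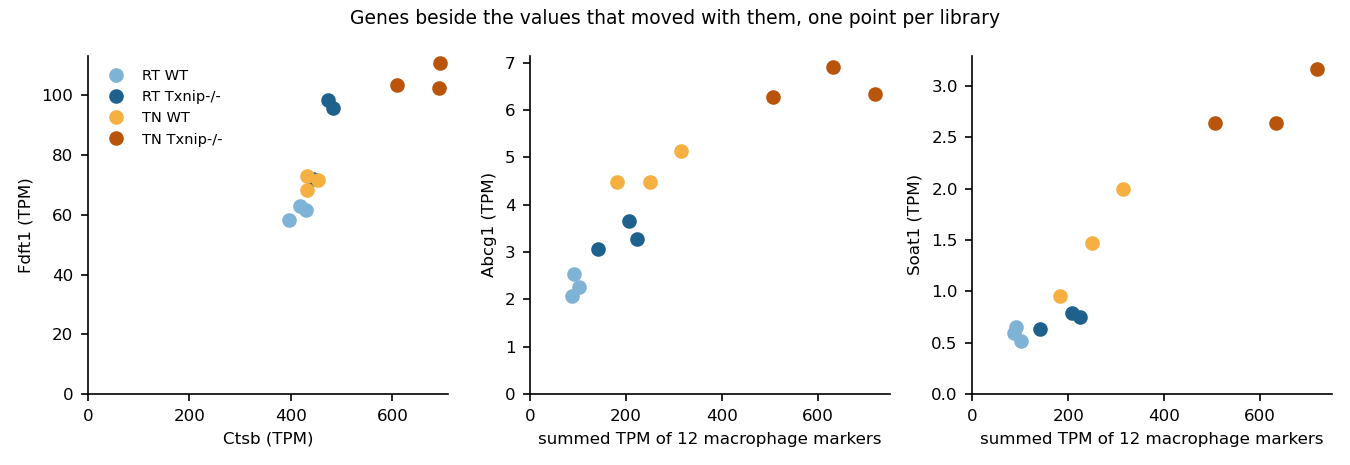
One point per library, colored by group, with *Fdft1* TPM against *Ctsb* TPM (left), and *Abcg1* (middle) and *Soat1* (right) TPM against the summed TPM of 12 macrophage markers, on linear axes from 0. The 3 TN Txnip-/- libraries are at the upper right of each panel, with marker sums of 507 to 718 TPM and the highest *Abcg1* and *Soat1* levels, while some of the other groups overlap.

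Set against each other over the 4 groups, the means of the enzymes overlapped between genotypes and those of the exporters did not. The mean log2(TPM + 1) of *Abca1* and *Abcg1* was 3.05 ± 0.04 (SD, n = 3) in WT and 3.32 ± 0.04 in Txnip-/- at RT, and 3.24 ± 0.06 in WT and 3.68 ± 0.12 in Txnip-/- at TN. The mean of the 18 enzymes exceeded it by 1.07 ± 0.14 in WT and 0.83 ± 0.11 in Txnip-/- at RT, and by 0.99 ± 0.25 in WT and 0.42 ± 0.03 in Txnip-/- at TN, on the log2 scale. By library the difference was 1.103, 0.92 and 1.18 in WT and 0.75, 0.80 and 0.95 in Txnip-/- at RT, and 0.72, 1.20 and 1.07 in WT and 0.40, 0.39 and 0.45 in Txnip-/- at TN. The 3 TN Txnip-/- libraries were the lowest of the 12 and close together, and the RT groups overlapped. The median log2 fold change of the exporters was 0.26 at RT and 0.44 at TN. These are descriptions of chosen genes, with 2 genes on the export side, and carry no test.

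**Figure D5:**
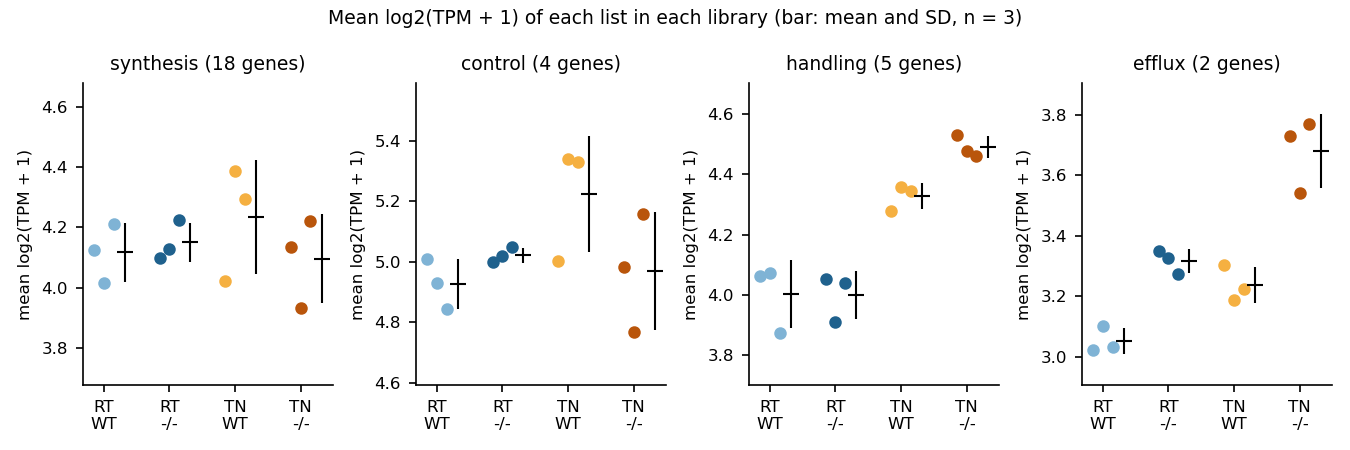
Mean log2(TPM + 1) (y axis, equal spans of 1 log2 unit in each panel, not starting at 0) of the synthesis, control, handling and efflux genes in each library, by group along the x axis, with mean and SD beside the points (n = 3). Synthesis means overlap between genotypes at both temperatures, while efflux means separate them, with 3.54 to 3.77 in TN Txnip-/- against 3.19 to 3.30 in TN WT.

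Whether the effect of *Txnip* loss differed between temperatures was tested as an interaction over all 12 libraries. None of the 29 genes passed (0 called by limma), where 1 of 12486 genes did (0.00801%), the gene *Txnip* itself, and 4 had an unadjusted p under 0.05, namely *Insig1*, *Soat1*, *Npc2* and *Ebp*, a count near the 12.6% of all tested genes. The largest difference of log2 fold changes was that of *Insig1*, −1.26 (SE 0.52, limma adjusted p = 0.352), followed by *Sqle* at −0.72 (adjusted p = 0.41). It was 0.53 for *Soat1* (adjusted p = 0.32), −0.43 for *Hmgcs1* (adjusted p = 0.454, and −0.245 without TN Txnip-/- library 2), 0.36 for *Abca1* (adjusted p = 0.422) and 0.04 for *Fdft1* (adjusted p = 0.918). For *Abcg1* it was 0.00 to 2 decimals (adjusted p = 0.996), with a SE of 0.12. Of the 18 enzymes, 13 had a difference below 0, against 54% of all tested genes.

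Further sterol genes, from a list of 25 of which 23 were tested, showed 1 call in each direction for the genotype at TN, where 8.66% of all tested genes were called, so the count is near the background. By limma 0 were called at RT, where 8 had an unadjusted p under 0.05 against 16% of all tested genes. *Cyp27a1*, the sterol 27-hydroxylase that makes an oxysterol, was 66.4, 70.9 and 61.7 TPM in TN WT and 90.1, 82.2 and 92.2 in TN Txnip-/-, with no overlap (log2 fold change 0.41, limma adjusted p = 0.0189). That call was lost without TN WT library 3 (0.36, adjusted p = 0.0592) or TN Txnip-/- library 1 (0.39, adjusted p = 0.078). *Vldlr*, the VLDL receptor, was 52.3, 44.2 and 42.1 TPM in TN WT and 35.0, 33.6 and 34.4 in TN Txnip-/-, also with no overlap. It fell by 0.41 on the log2 scale (adjusted p = 0.0269), a call lost without TN WT library 1 or 2 or any TN Txnip-/- library (0.32 to 0.44, adjusted p between 0.0399 and 0.086, the lowest of these with a fold inside the limit).

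With temperature, 8 of the 23 rose and 4 fell in WT, and 6 rose and 3 fell in Txnip-/-, where 31.4% and 6.39% of all tested genes did in WT and 30.9% and 8.27% in Txnip-/-. *Lbr*, which has sterol reductase activity, went from 6.67 ± 0.46 TPM (SD, n = 3) at RT to 13.1 ± 1.78 at TN in WT and from 5.69 ± 0.57 to 13.9 ± 0.27 in Txnip-/-. *Nr1h3*, which encodes the liver X receptor LXRα, fell from 56.0 ± 1.25 to 39.4 ± 1.92 TPM in WT and from 48.7 ± 4.87 to 32.6 ± 2.24 TPM in Txnip-/-. *Nceh1*, a cholesteryl ester hydrolase, rose from 1.30 ± 0.15 to 2.15 ± 0.22 TPM in WT and from 1.01 ± 0.12 to 2.96 ± 0.16 TPM in Txnip-/-. *Cyp27a1*, *Mbtps2* (which encodes a protease that cleaves SREBPs) and *Gramd1c* also rose in both genotypes, *Gramd1b* and *Lpcat3* also fell in both, *Erg28*, *Srebf1* and *Mylip* rose and *Hsd3b7* fell in WT, and *Lrp1* rose in Txnip-/-. Under upper-quartile normalization the calls of *Erg28*, *Mbtps2* and *Srebf1* and that of *Gramd1c* in WT were lost.

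Fatty acid synthesis draws on the same acetyl-CoA. The median log2 fold change of its 7 genes (*Acly*, *Acss2*, *Acaca*, *Fasn*, *Elovl6*, *Scd1* and *Me1*) in Txnip-/- was 0.36 at RT and 0.60 at TN, where that of the 18 sterol enzymes was −0.02 and −0.17. The mean log2(TPM + 1) of the 7 genes overlapped between genotypes at both temperatures. By library it was 8.91 to 9.92 in WT and 9.64 to 9.73 in Txnip-/- at RT, and 8.33 to 9.31 in WT and 8.98 to 9.37 in Txnip-/- at TN. One of the 7 was called at TN, where 8.66% of all tested genes were, so the count says little of the list. It was *Elovl6*, the elongase of palmitate, at 84.7, 138 and 86.1 TPM in TN WT and 171, 151 and 199 in TN Txnip-/- (log2 fold change 0.78, limma adjusted p = 0.0432). The call held in 6 of 13 alternatives and was lost with no filter on low values (adjusted p = 0.1), with the replicate number as a block (adjusted p = 0.0696), and without TN WT library 1 or 3 or any TN Txnip-/- library (0.655 to 0.874, adjusted p between 0.0727 and 0.128). The libraries within a group differed in the same order here as well, since TN WT library 2 was the highest of its group for all 7 genes and TN Txnip-/- library 2 the lowest for all 7. At RT, WT library 3 was the highest of its group for all 7 and WT library 2 the lowest for all 7.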

How the data were processed

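Poly-A RNA of BAT was sequenced single-end, and per the labels and the methods the authors aligned reads to mm10 with STAR 2.7.5a and counted them on exons with HOMER 4.11.1, keeping 1 transcript per gene. The authors deposited TPM of all 12 libraries, in which the listed genes sum to 55.38% to 57.55% of the TPM scale, and the per-gene depth is unknown, so no counting error was computed. The authors also deposited log2 values of the 6 libraries of each temperature, normalized by a transform the tables do not name, in which 8 of the 29 genes have another transcript. The same deposited tables hold the authors' own fold changes and p-values, which were not used.

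A value of 1 was added to each TPM before taking log2, which understates fold changes of low genes. The limma package (3.58.1, in R 4.3.3) was fitted to genes with a mean of at least 1 TPM, with empirical Bayes moderation, a trend and Benjamini-Hochberg adjustment over all tested genes, on the 6 libraries of a temperature for the genotype and on all 12 for the interaction and for temperature. The code was tested on simulated data. All 29 genes are named, with *Txnip* and the called genes of the further sterol and fatty acid lists, and the cell type marker lists are given by counts and summed levels. The genes, lists and tests were chosen with earlier results of these data known, so no list has a p of its own. Exon overlaps are from GENCODE vM21 and promoters from RefSeq.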

Additional observations from a re-analysis of the deposited data

Results flagged for a closer look

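The effect of genotype on *Txnip* itself differed between the temperatures by −2.09 on the log2 scale (TN minus RT, limma adjusted p under the threshold in the interaction test). It was flagged because the difference between the 2 temperatures passed the test of the interaction. The level in WT was higher at TN (1131 against 613 TPM) and the residual level in Txnip-/- lower (11.98 against 29.02 TPM). None of the 29 cholesterol genes was flagged, and groups of 3 are too small for a check of single outlying libraries.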

How the results depend on the processing

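Calls of the 29 genes and medians of the enzymes and exporters were recomputed under the alternatives, of which median centring was chosen after the data were seen. The authors' log2 values and the fit of all 12 libraries apply to the 2 genotype comparisons only, and the threshold of 0.1 to counts only. Of 56 gene values, 52 kept their direction and 30 their side of the threshold everywhere. At RT, 1 gene was called at an adjusted p under 0.1 and 2 with all 12 libraries in 1 fit, and the exporters' median log2 fold change was 0.33 with a pseudocount of 0.1 and 0.16 on the authors' log2 values. At TN, 1 gene was called with no filter, and that median was 0.33 on the authors' log2 values. For TN against RT in WT, upper-quartile normalization and median centring gave medians of −0.009 and −0.016 for the enzymes, in place of 0.168, and 0.028 and 0.003 for the exporters, in place of 0.186 (0.28 with a pseudocount of 0.1). In Txnip-/- they gave −0.19 and −0.23 for the enzymes, in place of −0.039, and 0.22 and 0.18 for the exporters, in place of 0.365. The interaction of *Abcg1* was 0.003 under upper-quartile normalization, with the sign changed. The causes were not tested beyond the scaling itself.

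Leaving out 1 library gave 0 to 1 genes called at RT, 1 to 3 at TN, 0 in the interaction, 8 to 13 for temperature in WT and 6 to 9 in Txnip-/-. The enzymes' median ranged from −0.048 to 0.079 at RT, from −0.275 to −0.073 at TN, from 0.096 to 0.198 for temperature in WT and, with the sign changed, from −0.079 to 0.022 in Txnip-/- (0.022 without TN Txnip-/- library 2), and the exporters' interaction median from 0.13 to 0.25. The sign changed for the interaction of *Fdft1* (−0.10 to 0.13) and *Abcg1* (−0.054 to 0.052) and, in Txnip-/- at TN against RT, for *Abca1* (−0.175 to 0.059) and *Insig1* (−0.671 to 0.023).

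Same-numbered libraries of the 2 genotypes had deviations with r of 0.30, −0.02 and 0.21 at RT and 0.04, 0.02 and −0.04 at TN. Libraries of different numbers had r between −0.30 and 0.16 at RT and between −0.08 and 0.07 at TN. With 3 such values a temperature, these cannot decide whether the numbers pair the mice. The paper calls the WT mice littermates of the Txnip-/- mice and gives no pairing of libraries. With the replicate number as a block, 0 genes were called at RT, 2 at TN (*Fdft1* higher, and *Hmgcs1* lower with adjusted p = 0.0433, with *Abcg1* and *Soat1* lost), 11 for temperature in WT and 10 in Txnip-/-. With 3 mice a group and low TPM for *Soat1*, *Mvd* and *Idi1*, small differences in these genes may have been missed. The size of difference that could be detected in them was not tested.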
